A study of Mus musculus with 6 samples.

Results

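The 10 genes described here encode the cargo receptors and the ATG8 proteins of selective autophagy, 5 of each. The receptors are Sqstm1 (p62), Nbr1, Optn, Calcoco1 and Tax1bp1, and the ATG8 genes are Map1lc3a, Map1lc3b, Gabarap, Gabarapl1 and Gabarapl2. They were chosen by name, as the rows of the count table whose Ensembl identifier carries one of these symbols in the GENCODE M21 annotation. The names were proposed with earlier results of these data known, so the shares of genes that passed are descriptions only. All 10 were found among 43346 genes, and all 10 were among the 14000 genes with enough reads to be tested.

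The cells were primary C57BL/6 mouse embryonic fibroblasts, which are fibroblasts grown from embryos, taken at passage 9 and profiled by RNA sequencing. Cells of 1 group were exposed to 3 µM erastin for 24 h, and cells of the other were given DMSO, the solvent; each group had 3 libraries. Erastin inhibits the cystine/glutamate antiporter and is used to induce ferroptosis, an iron-dependent form of cell death. No genetic change is given for either group, and both were grown in serum-containing medium that also held 2-mercaptoethanol, a thiol. The labels do not say that the 3 libraries of a group came from separate cultures, so the p-values below measure the spread between these libraries, which may be technical.

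In selective autophagy, a cargo receptor binds a target, often one tagged with ubiquitin, and also binds ATG8 proteins on the growing autophagosome membrane through a short LC3-interacting region. ATG8 proteins are trimmed by ATG4 proteases to expose a glycine near their C-terminus, and that glycine is then joined to a membrane lipid. Receptors and membrane-bound ATG8 are themselves carried to the lysosome, so transcript levels, which are what was measured here, do not give protein levels or autophagic flux.

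Total counts per library ran from 13333911 to 20509970, and a level of 3 counts corresponded to 0.14 to 0.234 CPM, the unit of counts scaled by library size; this floor covers counting error only. In a principal component analysis of all tested genes, the component holding 60.4% of the variance separated the treatments. DMSO replicate 3 stood apart from the other DMSO libraries on the next component, at -43.9 against 30.6 and 19.6. All 10 fibroblast markers were well expressed, with a summed level of 35433 to 38496 CPM in DMSO and 25455 to 26901 CPM in erastin libraries, and 8 of them were lower with erastin. The 6 epithelial markers were below 1 CPM in both groups. Of 5 endothelial markers, 2 (Tek and Kdr) were higher with erastin and the defining genes Pecam1 and Cdh5 stayed below 1 CPM; their summed level ran from 5.10 to 7.71 CPM in DMSO and 14.1 to 17.4 CPM with erastin. Macrophage markers summed to 22.7 to 43.3 and 27.1 to 56.8 CPM, and none of 6 passed an adjusted p of 0.05. Cd68 and Lyz2 came closest, at log2 fold changes of 1.06 and 0.71 (adjusted p = 0.055 and 0.058, edgeR), and the others had negative values. Muscle markers summed to 35.5 to 45.5 and 65.2 to 69.1 CPM, with 1 of 4 (Des) higher. Neural markers summed to 71.8 to 101 and 54.7 to 61.5 CPM, with 1 of 5 (Tubb3) lower. The part of these other cell types in the results below was not tested. In bulk RNA, fewer cells expressing a gene and less of its RNA per cell cannot be told apart.

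Of the 10 genes, 6 passed an adjusted p of 0.05 between erastin and DMSO (edgeR's quasi-likelihood test, Benjamini-Hochberg adjustment over all 14000 genes). The response was uneven in both families: 3 of 5 receptors rose and none fell, while in the ATG8 family 2 rose and 1 fell. Across all tested genes 43.1% passed, 21.6% as higher and 21.5% as lower with erastin, so the share of these genes that passed has to be read against a broad response. In 7 of the 10 genes the libraries of the groups did not overlap, against 52.5% of all tested genes. The median log2 fold change was 0.92 for the receptors, -0.095 for the ATG8 genes and -0.0014 for all tested genes.

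**Figure D1:**
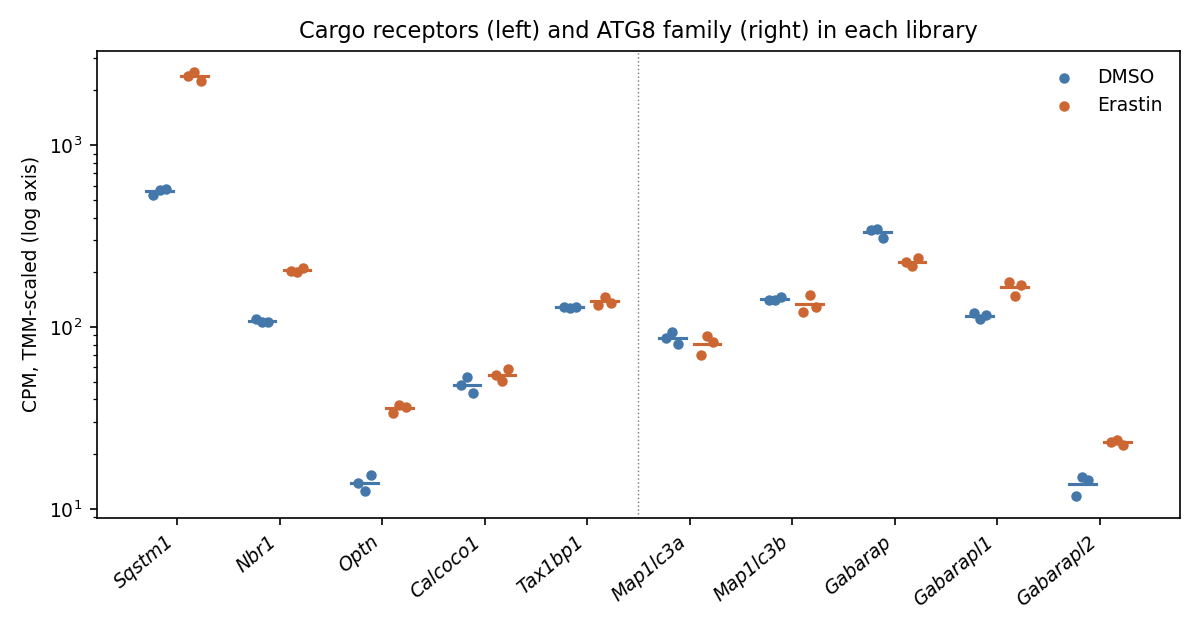
Level of each gene in each library, in CPM with TMM scaling on a log axis; points are the 3 libraries of a group and lines their means. Sqstm1 rises from 533 to 577 CPM in DMSO to 2240 to 2526 CPM with erastin, Nbr1, Optn, Gabarapl1 and Gabarapl2 are higher without overlap, and Gabarap is lower without overlap.

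Sqstm1 encodes p62, a receptor that gathers ubiquitinated proteins into bodies and that also binds KEAP1, the repressor of the NRF2 transcription factor. Its gene lies at chr11:50199366-50210827 on the minus strand (GRCm38, the assembly behind mm10). Its level was 533, 565 and 577 CPM in the DMSO libraries and 2393, 2526 and 2240 CPM in the erastin libraries. The lowest erastin library was far above the highest DMSO library. The log2 fold change was 2.10 ± 0.07 (SE, n = 3 libraries per group), a 4.28-fold rise with a 95% interval of 1.94 to 2.25 on the log2 scale and an adjusted p of 9.24e-11 in edgeR's quasi-likelihood test. By p-value it ranked 3 of the 14000 tested genes. Reads of Sqstm1 made up 65.1% ± 1.2 of the reads of the 5 receptors described here in DMSO and 84.6% ± 0.90 with erastin (SD, n = 3). Largely through this gene, the 10 genes together took 0.151% ± 0.0027 of all counts in DMSO and 0.352% ± 0.011 with erastin. An annotated gene on the opposite strand, Mrnip, shares 580 exon bases with Sqstm1, and it had 0 to 26 reads per library.

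Optn encodes optineurin, a receptor for ubiquitinated bacteria, mitochondria and protein aggregates whose binding is enhanced by the kinase TBK1. It lies at chr2:5020642-5064051 on the minus strand. Its level was 13.9, 12.6 and 15.4 CPM in DMSO and 33.8, 37.3 and 36.2 CPM with erastin. The groups did not overlap, and each erastin library held more than every DMSO library. Its log2 fold change was 1.36 ± 0.13 (SE), with a 2.57-fold rise and an adjusted p of 1.04e-06 in edgeR's quasi-likelihood test.

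Nbr1 encodes a receptor with a domain layout like that of p62, which it can bind through its PB1 domain. It lies at chr11:101552149-101581951 on the plus strand. Its level was 111, 107 and 107 CPM in DMSO and 205, 201 and 210.1 CPM with erastin. Libraries within each group lay close together, and the groups did not overlap. The log2 fold change was 0.92 ± 0.07 (SE), a 1.90-fold rise with an adjusted p of 1.46e-07 in edgeR's quasi-likelihood test. Because Sqstm1 rose more, the ratio of Sqstm1 to Nbr1 reads went from 5.16 ± 0.30 in DMSO to 11.6 ± 0.95 with erastin (SD, n = 3).

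Tax1bp1 and Calcoco1, which encode receptors of the same coiled-coil family, did not pass the test. Tax1bp1 (chr6:52713729-52766780, plus strand) was at 129.4, 127.3 and 129.3 CPM in DMSO and at 132, 147 and 136 CPM with erastin. These groups did not overlap, yet the difference was small: its log2 fold change was 0.10 ± 0.08 (SE), with a 95% interval of -0.06 to 0.27 and an adjusted p of 0.300 in edgeR's test. Calcoco1 (chr15:102706777-102722178, minus strand), a receptor for the endoplasmic reticulum and Golgi, was at 48.1, 52.9 and 43.1 CPM in DMSO and 54.6, 50.7 and 58.6 CPM with erastin. Here the groups overlapped, and the log2 fold change was 0.18 ± 0.10 (SE), with a 95% interval of -0.04 to 0.41 and an adjusted p of 0.171 in edgeR's test. Both values moved with a correction for GC content and transcript length: Calcoco1 reached 0.32 (adjusted p = 0.032, edgeR) and Tax1bp1 turned to -0.0897 (adjusted p = 0.41, edgeR). The ratio of Sqstm1 to Tax1bp1 reads went from 4.34 ± 0.19 to 17.3 ± 0.81 (SD, n = 3), and that of Optn to Tax1bp1 from 0.108 ± 0.010 to 0.259 ± 0.007.

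The ATG8 family divides into the LC3 genes (Map1lc3a, Map1lc3b) and the GABARAP genes (Gabarap, Gabarapl1, Gabarapl2). The ends of their coding sequences are shown because they hold the glycine that ATG4 exposes, and because they show how far the genes differ at the base level, on which assigning short reads to each depends. Each line gives the last 60 coding bases with the stop codon, from GENCODE M21 on GRCm38, 5′ to 3′; capitals mark the last glycine codon.
Map1lc3a: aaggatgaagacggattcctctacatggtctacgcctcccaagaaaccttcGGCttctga
Map1lc3b: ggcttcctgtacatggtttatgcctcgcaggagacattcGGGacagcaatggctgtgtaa
Gabarap: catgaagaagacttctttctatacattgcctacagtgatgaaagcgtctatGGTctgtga
Gabarapl1: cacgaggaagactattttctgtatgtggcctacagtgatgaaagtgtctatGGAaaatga
Gabarapl2: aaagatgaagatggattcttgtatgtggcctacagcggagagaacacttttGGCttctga
In Map1lc3b 5 codons follow that glycine codon before the stop, and in the other 4 genes 1 codon does. The coding sequences were 77.5% identical between Map1lc3a and Map1lc3b and 74.9% between Gabarap and Gabarapl1. Gabarapl2 was 64.6% identical to Gabarap and 64.9% to Gabarapl1, and pairs across the subfamilies were 54.4% to 61.0% identical. The longest run of identical bases between any pair of their transcripts was 10 to 17 bases.

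Gabarap was the single gene of the 10 that fell. It lies at chr11:69991143-69994951 on the plus strand, and it was at 341, 345 and 307 CPM in DMSO and 227, 216 and 239 CPM with erastin. All erastin libraries were below all DMSO libraries. Its log2 fold change was -0.54 ± 0.08 (SE), 0.686 of the DMSO level, with an adjusted p of 3.65e-05 in edgeR's quasi-likelihood test.

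Gabarapl1, its closest relative here by coding sequence, moved the other way. The gene lies at chr6:129533160-129542346 on the plus strand. Its level was 119, 111 and 117 CPM in DMSO and 176, 148 and 171 CPM with erastin, without overlap. The log2 fold change was 0.52 ± 0.08 (SE), 1.43-fold, with an adjusted p of 1.64e-04 in edgeR's quasi-likelihood test. The 95% intervals of Gabarapl1, 0.34 to 0.70, and of Gabarap, -0.70 to -0.38, lie on opposite sides of 0. The ratio of Gabarapl1 to Gabarap reads was 0.349, 0.320 and 0.380 in DMSO and 0.777, 0.687 and 0.713 with erastin. An annotated transcript on the opposite strand, 1700101I11Rik, shares 570 exon bases with Gabarapl1, and it had 0 to 11 reads per library.

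Gabarapl2 (GATE-16), at chr8:111940703-111953612 on the plus strand, had the lowest level per kilobase of the ATG8 genes in both groups. Its level was 11.7, 15.1 and 14.4 CPM in DMSO and 23.2, 24.1 and 22.6 CPM with erastin, again without overlap. The log2 fold change was 0.76 ± 0.15 (SE), 1.69-fold, with an adjusted p of 7.58e-04 in edgeR's quasi-likelihood test. The annotation holds 3 processed pseudogenes with stretches of 349 to 352 bases at 96.6% to 99.4% identity to its transcript, so its count carries some uncertainty. The 1 pseudogene of these in the table had at most 6 reads in a library.

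The LC3 genes did not pass. Map1lc3b, whose protein is the usual marker of autophagosomes, lies at chr8:121590361-121598760 on the plus strand and was at 140.2, 140.5 and 147 CPM in DMSO and 121, 150.1 and 129 CPM with erastin. The erastin libraries lay on both sides of the DMSO libraries. Its log2 fold change was -0.09 ± 0.09 (SE), with a 95% interval of -0.28 to 0.09 and an adjusted p of 0.413 in edgeR's test. It has 4 processed pseudogenes in the table, with 31 to 68 reads in all per library, at most 2.68% of its own count. Zcchc14, on the opposite strand, shares 58 exon bases with Map1lc3b and had 1105 to 1470 reads in DMSO and 1679 to 2129 with erastin, and since the strand setting of the counting is not given, its part in the Map1lc3b count was not tested. Map1lc3a (chr2:155276297-155278073, plus strand) was at 87.4, 93.8 and 81.2 CPM in DMSO and 70.1, 89.1 and 83.2 CPM with erastin, so the groups overlapped. Its log2 fold change was -0.12 ± 0.10 (SE), with a 95% interval of -0.33 to 0.10 and an adjusted p of 0.379 in edgeR's test. After the GC and length correction the sign turned, to 0.29 with an adjusted p of 0.025 in edgeR's test, so no direction is given for Map1lc3a. It is the shortest and most GC-rich of the 10 genes, with 1181 exon bases and 63.1% GC.

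**Figure D2:**
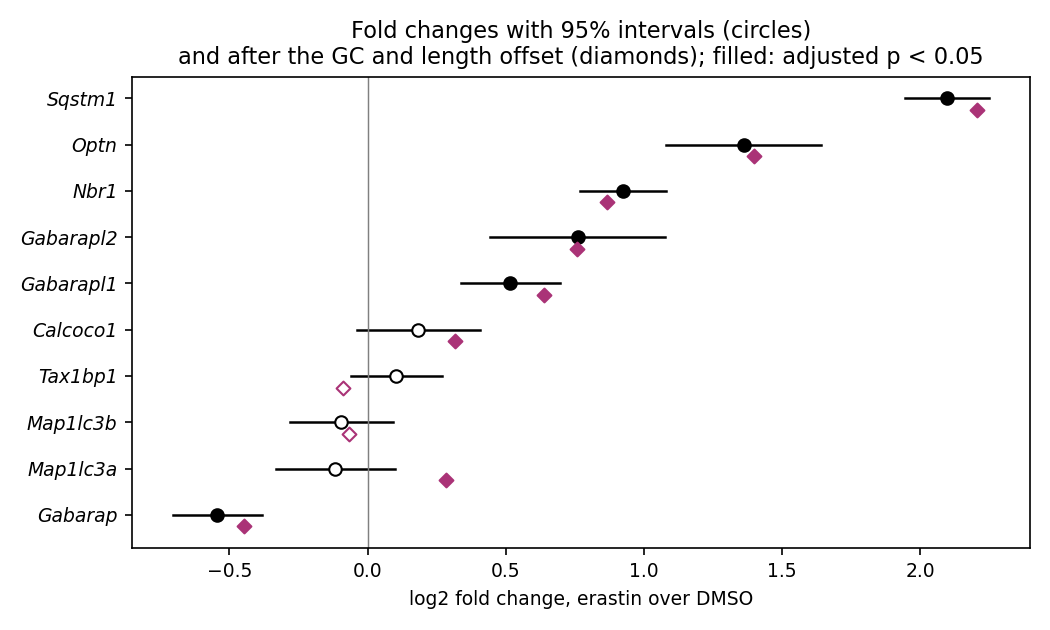
Log2 fold change of erastin over DMSO for each gene, as circles with 95% intervals derived from edgeR's F statistic. Diamonds are the values after an offset for GC content and transcript length, and filled symbols have an adjusted p under 0.05. Sqstm1 is highest at 2.10 and Gabarap lowest at -0.54; the offset moves Map1lc3a from -0.12 to 0.29.

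Levels of different genes were compared per kilobase of exon union, the total length of all annotated exons. In DMSO the order of the levels began with Gabarap at 180 ± 11.3 CPM per kb and Sqstm1 at 166 ± 6.80, whose libraries overlapped, followed by Map1lc3a at 74.1 ± 5.34 and Gabarapl1 at 57.4 ± 2.19. Map1lc3b, Nbr1 and Tax1bp1 followed at 19.0 ± 0.53, 15.7 ± 0.30 and 12.9 ± 0.12 CPM per kb, and Calcoco1, Gabarapl2 and Optn were lowest, at 8.38 ± 0.85, 5.91 ± 0.77 and 3.72 ± 0.38. With erastin, Sqstm1 stood alone at the top with 711 ± 42.8 CPM per kb, ahead of Gabarap at 123 ± 6.31. Gabarapl1 at 82.0 ± 7.30 and Map1lc3a at 68.4 ± 8.25 overlapped, and so did Gabarapl2 at 10.0 ± 0.31, Calcoco1 at 9.53 ± 0.69 and Optn at 9.53 ± 0.47. Nbr1 at 29.9 ± 0.66 stood above Map1lc3b at 17.8 ± 1.98 and Tax1bp1 at 13.8 ± 0.79 (SD, n = 3 throughout). With the longest transcript as the length, Tax1bp1 came above Nbr1 in DMSO, at 30.3 against 22.6 CPM per kb, and overlapped Map1lc3b with erastin. With that length Gabarap (245 CPM per kb) and Sqstm1 (209) no longer overlapped in DMSO, nor did Gabarapl1 (90.7) and Map1lc3a (72.7) with erastin, and Calcoco1 (18.4) stood above Gabarapl2 (13.9) and Optn (13.7). The order of neighbours therefore depends in part on the length used.

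Summed over the ATG8 family, the level was 336 ± 14.8 CPM per kb in DMSO and 302 ± 9.02 with erastin (SD, n = 3), while the make-up of the sum shifted within the GABARAP genes. Gabarap supplied 54.1%, 54.0% and 52.2% of the sum in the DMSO libraries and 41.5%, 39.5% and 41.6% with erastin. Gabarapl1 supplied 17.3%, 15.8% and 18.2% in DMSO and 29.6%, 24.9% and 27.2% with erastin. Neither gene's shares overlapped between the groups, and without DMSO replicate 3 the differences in mean share were -13.2 and 10.6 percentage points. Gabarapl2 went from 1.76% ± 0.25 to 3.33% ± 0.19, and the LC3 genes together held 27.7% ± 0.60 and 28.6% ± 3.36 of the sum. No test was made on these shares, which follow from the values of the genes already given. The same shift was seen with the longest transcript as the length, where Gabarap went from 57.0% to 44.5% and Gabarapl1 from 14.8% to 24.0%. The GC and length correction was not applied to the sum or the shares. It moved the log2 value of Map1lc3a from -0.12 to 0.29, so the LC3 share is given for uncorrected values only.

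**Figure D3:**
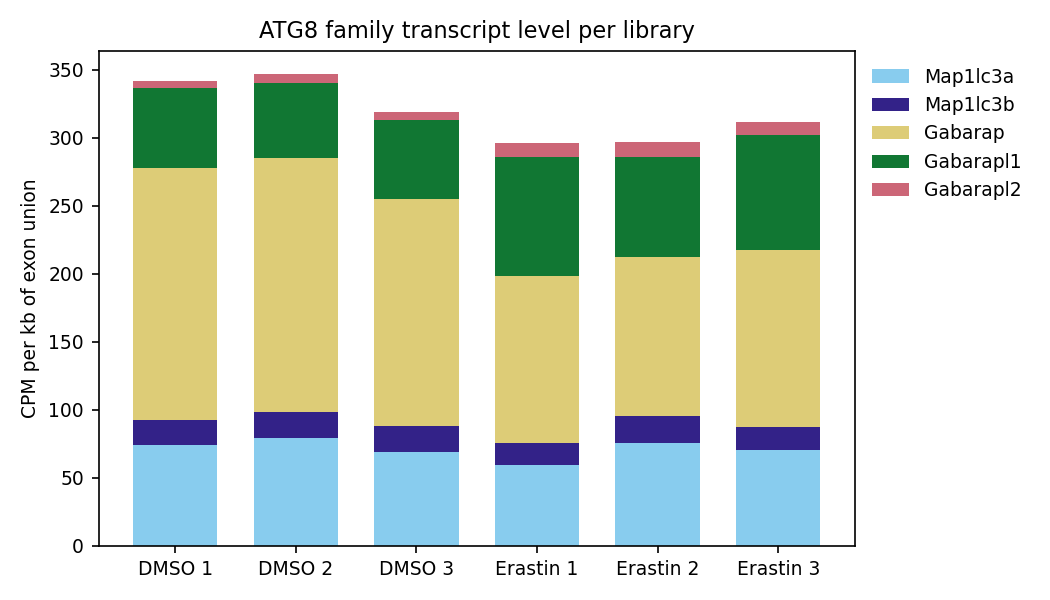
Transcript level of the ATG8 genes in each library, stacked, in CPM per kilobase of exon union. The stack runs from 319 to 347 CPM per kb in DMSO and from 296 to 312 with erastin, with a smaller Gabarap and a larger Gabarapl1 layer in all erastin libraries.

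Start-site windows were read from RefSeq (GRCm38.p6), as the 250 bases upstream of each annotated start. Of the 10 genes 9 matched, all but Map1lc3a, with 11 windows. Windows of 3 of the 5 genes that rose are shown, each on its own gene's strand. They are those of Sqstm1 (chr11:50210821-50211070, minus), Optn (chr2:5064118-5064367, minus) and Gabarapl2 (chr8:111940453-111940702, plus). The windows of Gabarapl1 and Nbr1, which also rose, are not shown. Capitals mark the GC box GGGCGG or its reverse complement, a common element of promoters that binds SP-family factors.
Sqstm1: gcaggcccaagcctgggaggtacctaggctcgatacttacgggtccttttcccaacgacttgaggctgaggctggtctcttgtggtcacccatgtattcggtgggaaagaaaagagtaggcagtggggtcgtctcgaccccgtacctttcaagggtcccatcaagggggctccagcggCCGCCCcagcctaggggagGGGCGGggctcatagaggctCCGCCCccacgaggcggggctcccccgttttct
Optn: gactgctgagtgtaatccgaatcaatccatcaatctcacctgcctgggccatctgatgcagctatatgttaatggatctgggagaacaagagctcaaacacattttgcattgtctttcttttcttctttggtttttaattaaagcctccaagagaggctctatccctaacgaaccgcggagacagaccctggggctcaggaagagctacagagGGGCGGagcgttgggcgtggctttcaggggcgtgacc
Gabarapl2: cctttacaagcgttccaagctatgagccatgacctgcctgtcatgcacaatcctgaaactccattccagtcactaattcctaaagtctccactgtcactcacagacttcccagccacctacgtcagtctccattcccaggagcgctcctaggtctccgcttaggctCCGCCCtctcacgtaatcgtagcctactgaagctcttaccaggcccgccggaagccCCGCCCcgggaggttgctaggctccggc
The Sqstm1 window held 3 GC boxes, the Gabarapl2 window 2 and the Optn window 1. GC boxes were found in 6 of the 11 windows, against 32.7% of 32851 windows of the same length. The 6 also included that of Gabarapl1, which rose, and those of Calcoco1 and Map1lc3b, which did not pass the test. The windows of Gabarap and Tax1bp1 held none, nor did those of Nbr1, which rose. RefSeq and GENCODE starts differ for some genes. The Gabarap window, chr11:69991120-69991369, lies mostly inside the gene, whose GENCODE start is 69991143. Most of the 250 bases upstream of that GENCODE start were therefore not searched. The Nbr1 window chr11:101552404-101552653 and the Tax1bp1 window chr6:52713915-52714164 lie wholly inside their genes, whose GENCODE starts are 101552149 and 52713729. The motif TGACNNNGC is the core of the antioxidant response element bound by NRF2. It was found on either strand in 10.2% of all windows and in 1 of the 11. That 1 was the Tax1bp1 window inside the gene, and the Tax1bp1 window upstream of the GENCODE start held none. CACGTG, an E-box, TGATGNAA, an ATF4 composite site, and GTAAACA, a FOXO site, were in 6.02%, 3.45% and 3.17% of all windows and in none of the 11. The last 3 motifs and the GC box were also searched on both strands, and no match says only that these letters are not in this window.

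The genes whose pattern across the 6 libraries was most like that of Sqstm1 were Vegfa, Creb5, Slc6a9, 1700012B09Rik and Chac1. Likeness was the root mean square difference in log2 CPM (pseudocount 0.5) centred on the DMSO mean, and it ran from 0.08 for Vegfa to 0.13 for Chac1. Vegfa, a secreted growth factor, was at 90.0 ± 5.36 CPM in DMSO and 375 ± 45.4 with erastin, and Chac1, a glutathione-degrading enzyme, at 33.4 ± 4.49 and 156 ± 12.3 (SD, n = 3). 1700012B09Rik had no read in DMSO, so its likeness depends on the pseudocount. Creb5 was at only 1.91 ± 0.11 CPM in DMSO and had a log2 fold change of 2.33, so its likeness depends on the pseudocount in part. For Gabarapl1 the nearest genes were Srek1ip1, Kdm5a, Zfp706, Rps6ka2 and Gtf2f2, with differences of 0.04 to 0.05. Because values were centred on the DMSO mean, likeness largely follows the size of the change with erastin. These genes had log2 fold changes of 0.47 to 0.59, against 0.52 for Gabarapl1. Across all tested genes 21.6% passed as higher, and how many others lay nearly as close was not counted.

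Of 79 other autophagy genes in 8 lists by role, 78 were tested and 40 passed, 30 higher and 10 lower with erastin, with a median log2 fold change of 0.17. Their share that passed, 51.3%, compares with 43.1% of all tested genes, 21.6% as higher and 21.5% as lower with erastin.

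Among the partners of the receptors, 4 of 8 rose and 1 fell. Nfe2l2, which encodes NRF2, rose from 103 ± 2.26 to 200 ± 11.4 CPM (log2 0.95, adjusted p = 1.96e-07, edgeR), and Traf6, a ubiquitin ligase that binds p62, from 18.9 ± 0.85 to 48.1 ± 6.66 CPM (log2 1.35, adjusted p = 8.09e-07, edgeR). Azi2, an adaptor of TBK1, fell by 0.48 on the log2 scale. Keap1 and Tbk1, chosen after their values were seen, had log2 values of 0.05 and 0.23 and did not pass (adjusted p = 0.678 and 0.132, edgeR).

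Of 15 other cargo receptors and adaptors tested, 4 rose and 1 fell, with a median of -0.05. Bnip3, a mitophagy receptor, rose by 1.53 on the log2 scale and Retreg1, a receptor for the endoplasmic reticulum, by 1.49 (adjusted p = 2.14e-06 and 5.41e-06, edgeR), while Fkbp8, another mitochondrial receptor, fell by 0.33. Calcoco2, chosen after its values were seen, had no read in any library. Ncoa4, the ferritin receptor, also chosen after its values were seen, was at 22.4 ± 4.18 CPM in DMSO and 19.2 ± 3.83 with erastin and did not pass (log2 -0.22, adjusted p = 0.331, edgeR).

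In the machinery that handles ATG8, 4 of 11 conjugation and protease genes rose and 2 fell. Atg12 and Atg7, of the conjugation systems, rose by 0.59 and 0.57 on the log2 scale, and Atg4b, a protease that trims ATG8 proteins, fell from 56.6 ± 6.01 to 43.1 ± 1.48 CPM (log2 -0.39, adjusted p = 5.59e-03, edgeR). Of the genes for membrane supply and phosphoinositide binding, 5 of 9 rose, among them Atg2b (0.81) and Wipi2 (0.68), and Wipi1 fell by 0.65. In the phosphatidylinositol 3-kinase complexes 2 of 8 rose, Atg14 by 1.01 and Becn1 by 0.50, and Uvrag fell by 0.56. Of 5 initiation genes Rb1cc1 rose by 0.24 and Ulk2 fell by 0.84. Among 13 genes of fusion with lysosomes 4 rose, led by Epg5 (0.82), Vps33a (0.70) and Vps18 (0.67), and 3 fell.

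Of 9 transcription factors linked to autophagy genes, 6 rose and none fell, with a median of 0.59. The list does not separate factors that raise autophagy genes from factors that repress them. Atf4, a factor of the integrated stress response, rose from 217 ± 17 to 414 ± 9.52 CPM (log2 0.93, adjusted p = 1.66e-07, edgeR), and Foxo1 and Zkscan3 rose by 0.68 and 0.64. Tfeb, chosen after its values were seen, was lower in all erastin libraries but did not pass (log2 -0.53, adjusted p = 0.117, edgeR).

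**Figure D4:**
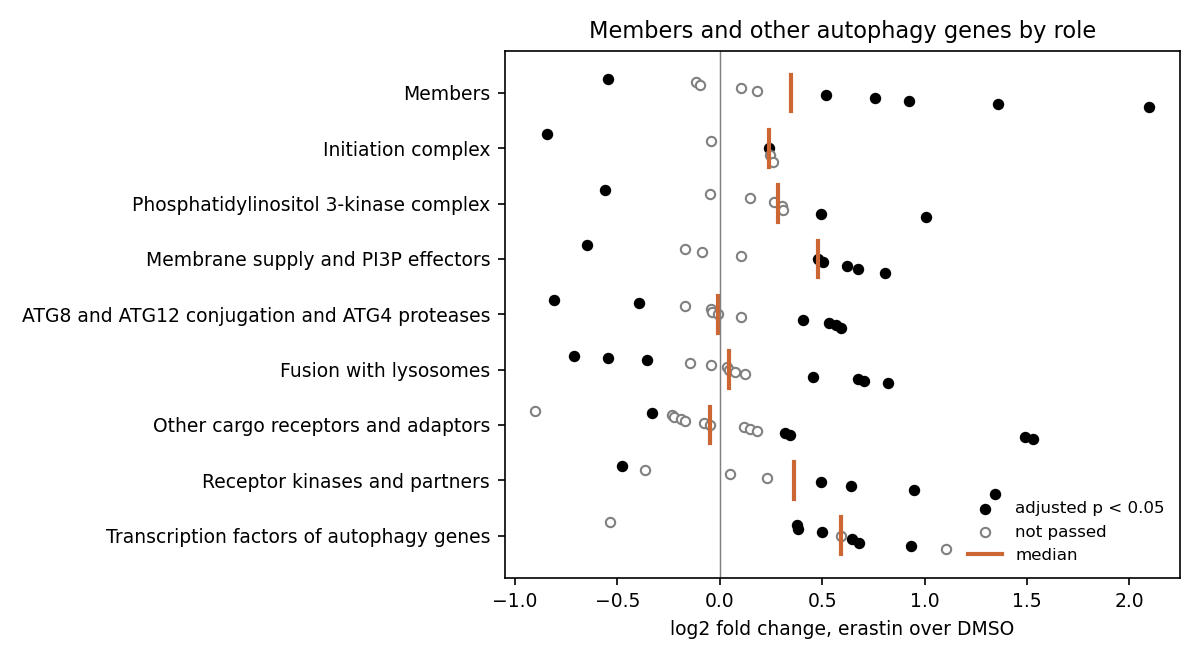
Log2 fold change of erastin over DMSO for the 10 genes (top row) and for 78 other autophagy genes in 8 lists by role; filled points have an adjusted p under 0.05 and the bars are medians. Genes on both sides of 0 pass in every list but the transcription factors, where the 6 passing genes are all above 0.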

How the data were processed

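For the 3 DMSO and 3 erastin libraries, total RNA was depleted of ribosomal RNA and sequenced on an Ion Proton instrument, per the labels' protocols. The authors deposited whole-number read counts per gene, not normalized; HTSeq 0.9.1, SAMtools and the mm10 build are named in the submitters' processing notes. The aligner, the annotation, the strand setting and the treatment of reads matching several genes are not given in the sources used here. Identifiers were matched without version to GENCODE M21, which gave 42462 of 43346 rows (98.0%) a symbol; 54.4% of identifiers carried the same version. No row was without a gene, and 0 columns were unused.

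Counts were filtered with filterByExpr (minimum count 10 in 3 libraries, total 15), scaled with TMM factors and tested with edgeR 4.0.16 (quasi-likelihood, 2-sided, treatment as the only term, Benjamini-Hochberg over all 14000 genes, threshold 0.05). CPM are counts scaled by TMM-adjusted library size. The standard errors given were derived as the absolute log2 fold change divided by the square root of the test's F statistic. The 95% intervals were built from them with the t distribution. Total counts ran from 13333911 to 20509970. Pairs of libraries within a group differed by 11.0 to 19.2 in chi-square per degree of freedom, so none agreed within sampling noise and each was counted once. Near-identical copies were sought with BLAST 2.17.0 (95% identity over 300 bases). The main edgeR fit, and the fits with the replicate number as a block or with the GC and length offset, were tested on simulated data. The other steps were not.

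Groups came from the sample titles. The genes named by rule are the 10 genes, at most 3 genes per role list by smallest p, and the 5 nearest patterns to Sqstm1 and to Gabarapl1. Keap1, Tbk1, Calcoco2, Ncoa4 and Tfeb were named after their values were seen. Some cell type markers and genes overlapping the 10 are also named. The members and lists were chosen with earlier results of these data known. Alternatives were other scaling factors, other filters, the replicate number as a block, a GC and length offset (mgcv 1.9.3), DESeq2 1.42.0, a threshold of 0.01 and leaving out each library.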

Additional observations from a re-analysis of the deposited data

How the results depend on the processing

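The 6 genes that passed, Sqstm1, Nbr1, Optn, Gabarap, Gabarapl1 and Gabarapl2, passed in the same direction under all 15 alternatives run for single genes, including without DMSO replicate 3, where their log2 fold changes were 2.12, 0.91, 1.43, -0.60, 0.52 and 0.79. Over the alternatives Sqstm1 ran from 2.04 to 2.20, Gabarap from -0.60 to -0.45 and Gabarapl2 from 0.66 to 0.84. The count of passing genes among the 10 was 6 under every alternative but the GC and length offset, alone or with the block, where it was 8. That offset brought Calcoco1 to 0.32 and reversed Map1lc3a to 0.29 and Tax1bp1 to -0.0897; the cause was not tested. Other autophagy genes passing ran from 35 to 45, and all genes passing from 4305 to 6104. Of all passing genes 50.2% were higher with erastin under TMM scaling, 57.1% when libraries were scaled by their totals alone and 44.0% under upper-quartile scaling. The ratio of the summed ATG8 level, erastin to DMSO, was 0.897 and ran from 0.875 to 0.912 over 8 alternatives. These were the longest transcript as the length, counts of near-identical copies added, and each library left out. Other scaling factors and the GC and length offset were not applied to this sum, so how far its ratio depends on them was not tested.

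The labels do not say whether equal replicate numbers mark a shared batch. The correlation of deviations from the group mean ran from -0.0055 to 0.040 between equally numbered libraries of the groups. Between unequally numbered libraries it ran from -0.045 to 0.035. With 3 libraries per group these values cannot decide whether a batch was shared. With the replicate block 6 of the 10 genes and 5882 of all genes passed, Sqstm1 was at 2.10 and no call among the 10 changed. With the block and the GC and length offset together, Map1lc3a was at 0.28 (adjusted p = 0.021), Tax1bp1 at -0.0920 (0.417) and Calcoco1 at 0.32 (0.044), all in edgeR. Counts were lowest for Optn and Gabarapl2, at 155 to 272 reads per DMSO library, and their standard errors were the largest of the 10.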
